A study of Arabidopsis thaliana with 13 samples.

Results

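In whole seedlings of Arabidopsis thaliana, 88 of 13611 tested probe sets followed a falling course over 48 h with a 24 h rhythm under a set limit. A probe set is the group of short probes that reads a transcript on the Affymetrix ATH1 array. These 88 make up 0.647% of those tested. They were chosen by their measured values: a mean log2 signal above 5 over 13 arrays, a fitted slope of -0.3 or lower on the log2 scale per 24 h, a partial R2 of that slope of at least 0.6, and a fitted 24 h amplitude under 0.5. The fitted curve held an intercept, hour, and the cosine and sine of 24 h, and its amplitude is the height of the daily curve above its mean. Among 92 probe sets that met the thresholds, 4 were left out by gene name: the peroxidases AT3G01190, AT5G64100 and AT5G66390, and the glycosyltransferase UGT76B1. The rule left out those peroxidases and every gene symbol beginning UGT, GH9 or EXPA, whatever the values. Slope, partial R2 and amplitude are therefore given as a description, without a test. Of the 88, 36 are annotated to 1 gene, 1 to several genes, and 51 to none in the platform annotation used here. The 51 are counted but not named.

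All seedlings were of the accession Col-0 and carried no treatment contrast or mutation in the labels. They grew on plates of MS agar containing 3% sucrose, in a growth room kept at 22 C under a photoperiod of 12 h. Sampling began at hour 26 and ended at hour 74, at steps of 4 h. Each time point is a group of 1 array and has no replicate. Neither the meaning of hour 0 nor the light regime during sampling is given in the labels, so times of day below are hours of the course modulo 24.

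A transcript with a daily rhythm returns to the same level each day, whereas the level of a growing plant's transcript may also drift from day to day. Growing organs of seedlings make many extracellular proteins. These include peroxidases, which oxidise wall phenolics and proteins, extensins, which are structural wall glycoproteins, and lipid transfer proteins, which bind lipids outside the membrane. Lectins bind sugars, and chitinases and protease inhibitors act on molecules of pathogens and herbivores. For members known by locus only, the families named below are background knowledge of those loci.

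The values are signals on a linear scale, scaled so that the trimmed mean of each array was 100.01. A signal is thus relative to the rest of its array, and in whole seedlings fewer cells of a type and less RNA per cell cannot be told apart. The median signal of non-control probe sets lay between 46.8 and 50.9 on the 13 arrays. The 16 housekeeping control probe sets of the array, for actin, GAPDH and ubiquitin, had slopes of -0.10 to 0.18 log2 per 24 h, with a median of 0.0025. The controls for 25S and 5S ribosomal RNA scattered more. Their slopes were 0.01 and 0.36, with standard errors of 0.65 and 0.46.

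The 88 slopes ran from -1.35 to -0.30 log2 per 24 h, with a median of -0.50 and a median standard error of 0.11. The median slope of all tested probe sets was 0.0054. On the fitted line this is a signal 1.52 to 6.47 times as high at hour 26 as at hour 74, with a median of 1.99 times. The fall was steeper than 0.6 in 29 members, between 0.4 and 0.6 in 33, and shallower than 0.4 in 26. The median signals of the members ran from 37.1 to 1426. The steepest slopes belonged to a pair of probe sets with no gene, at -1.35 ± 0.27 and -1.25 ± 0.21 (slope ± SE, 13 arrays).

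The slope rule fixes which end of the course is high, so the counts of extreme hours are a description. The highest array was hour 26 in 56 of the 88 members and hour 30 in 16. In 77 it was hour 34 or earlier, as in 3716 of the 13611 tested. The lowest array was hour 74 in 47 members and hour 70 in 18. In 74 it was hour 62 or later, as in 4368 of the 13611 tested. Of the 36 members with 1 gene, 35 could be placed on a nuclear chromosome, 15 of them on chromosome 1, 1 on chromosome 2, 5 each on chromosomes 3 and 4, and 9 on chromosome 5. Of all tested probe sets placed in this way, 25.6% lay on chromosome 1 and 15.0% on chromosome 2. In the plot of member profiles the median of the members runs from high to low while the median of all tested probe sets stays level.

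**Figure D1:**
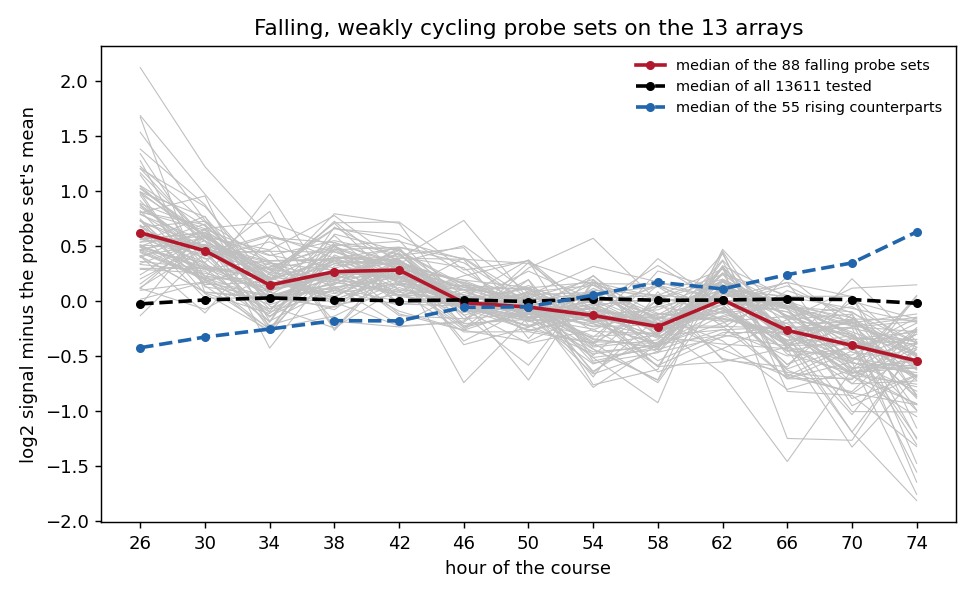
Log2 signal of each falling member minus its own mean (grey lines, vertical axis) against hour of the course (horizontal axis, hours 26 to 74, 1 array each). The red line is the median of the 88 members, the black line that of all 13611 tested, and the blue line that of the 55 probe sets that met the same thresholds with a rising slope. The red line is at 0.62 at hour 26 and at -0.55 at hour 74, with a dip at hour 34 and a bump at hour 62.

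Among the enzymes and structural proteins of the cell wall and the space outside the cell there were 6 named members, with slopes of -0.94 to -0.32. AT4G13580, a member of the dirigent family, whose relatives steer the coupling of lignin and lignan precursors, had the steepest. Its signal at the 13 arrays from hour 26 to hour 74 was 229, 169, 129, 196, 184, 106, 129, 66.6, 73.4, 155, 83.4, 45.0 and 70.4. The slope was -0.94 ± 0.21, and the array of hour 62 stood above those of hours 54 to 58 and 66 to 74.

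AT4G11290, a class III peroxidase, had its highest signal at hour 26. On the other 12 arrays it read 84.6, 48.4, 71.4, 77.9, 57.2, 52.0, 39.0, 44.8, 61.4, 55.6, 51.0 and 41.3, with a slope of -0.53 ± 0.13. Its signal on the later array was lower in all 7 pairs of arrays 24 h apart. AT1G23720, an extensin-like proline-rich protein, read 203, 219, 179.6, 169, 198, 141, 130.1, 131, 101, 120.5, 121, 125 and 129. Each of its 6 arrays of hours 54 to 74 was below each of its 6 arrays of hours 26 to 46, and most of its fall lay before hour 58. Its probe set carries the suffix of probes that may read related genes, so its signal may be shared with other extensins.

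SBT4.12, a subtilase, which is a secreted serine protease family, had a slope of -0.55 ± 0.14. It read 77.9, 68.3, 85.4, 113, 109, 85.9, 70.1, 73.0, 74.5, 87.9, 54.4, 54.6 and 29.1. Its highest arrays were hours 38 and 42 and its lowest was hour 74, so the fall was not spread over the whole course. AT5G48900, of the pectate lyase family that cuts wall pectin, read 439.7, 426, 383, 296, 255, 261, 368, 443, 297, 208, 190.5, 182 and 308. It had the largest daily amplitude of the members, 0.45, and the shallowest slope among those with 1 gene, -0.32 ± 0.07. AT1G67330, a relative of enzymes that methylate arabinogalactans, was high early in the course: its signal was 341 at hour 26, 291 at hour 30, and between 134 and 204 on the 11 later arrays. Its slope was -0.43 ± 0.09.

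The 3 members of types linked to defence had slopes of -0.69 to -0.39. ChiC, a class V chitinase, read 503, 287, 235, 261, 240.2, 229, 246, 224, 167, 190.1, 161, 169 and 190.2, with a slope of -0.58 ± 0.10. The array of hour 26 stood far above the rest, yet each array of hours 54 to 74 was below each array of hours 26 to 46. AT1G50060, of the secreted family that holds the pathogenesis marker PR-1, had signals of 13.9 to 72.7 with a median of 41.9. Its slope of -0.69 ± 0.17 rested partly on its last array: without hour 74 it was -0.42. AT1G17860, a Kunitz-type protease inhibitor, had signals of 300.1 to 709 and a slope of -0.39 ± 0.08. It was lower on the later array in all 7 pairs 24 h apart.

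AT1G52050, AT1G52060 and AT1G52070 encode jacalin-type lectins and are next to each other in the gene order of chromosome 1. AT1G52060 read 88.8, 70.9, 66.5, 93.3, 93.8, 69.3, 73.4, 39.0, 42.8, 73.3, 35.5, 43.2 and 19.4, with a slope of -0.92 ± 0.17. AT1G52070 had signals of 24.7 to 90.1 and a slope of -0.62 ± 0.15. AT1G52050 had signals of 18.0 to 55.1 and a slope of -0.56 ± 0.13. The 3 had their lowest signal at hour 74, and their daily curves peaked between hours 15.6 and 17.4. Across the 13 arrays their log2 signals correlated at 0.82 to 0.88. After the fitted fall and daily curve were taken out, the correlations were 0.28, 0.57 and 0.59. The genes are close relatives on the same arrays, and how far their probes read one another was not tested.

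A pair of members belong to the lipid transfer family. AT3G22620 read 562, 364, 247, 243, 276, 275, 241, 191, 183, 300.1, 218, 145 and 147, with a slope of -0.70 ± 0.16. It was steepest between hours 26 and 34 and again high at hour 62. AT3G58550 had signals of 316 to 646 and a slope of -0.32 ± 0.09. Its partial R2 of 0.603 made it the named member closest to that threshold.

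Of 3 metabolic and redox members, AT4G15390 had the highest partial R2 of the named members. It belongs to the family of acyltransferases that use acyl-CoA donors, and it read 661, 564, 508, 484, 463, 415, 386, 341, 365, 406, 326, 250.0 and 236. Its slope was -0.63 ± 0.06, its partial R2 0.92 and its daily amplitude 0.09. Its 6 arrays of hours 54 to 74 did not overlap with its 6 arrays of hours 26 to 46. AT5G44380, of the berberine bridge enzyme-like oxidases, read 456, 354, 251, 365, 264, 191, 197, 217, 180.1, 263, 139, 124 and 115. Its slope was -0.81 ± 0.14, with raised arrays at hours 38 and 62. AT1G06830, a glutaredoxin, which reduces disulfides with glutathione, leaned on its first array. It read 112 at hour 26 and between 36.1 and 62.6 afterwards, and its slope of -0.34 ± 0.09 was -0.21 without hour 26.

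**Figure D2:**
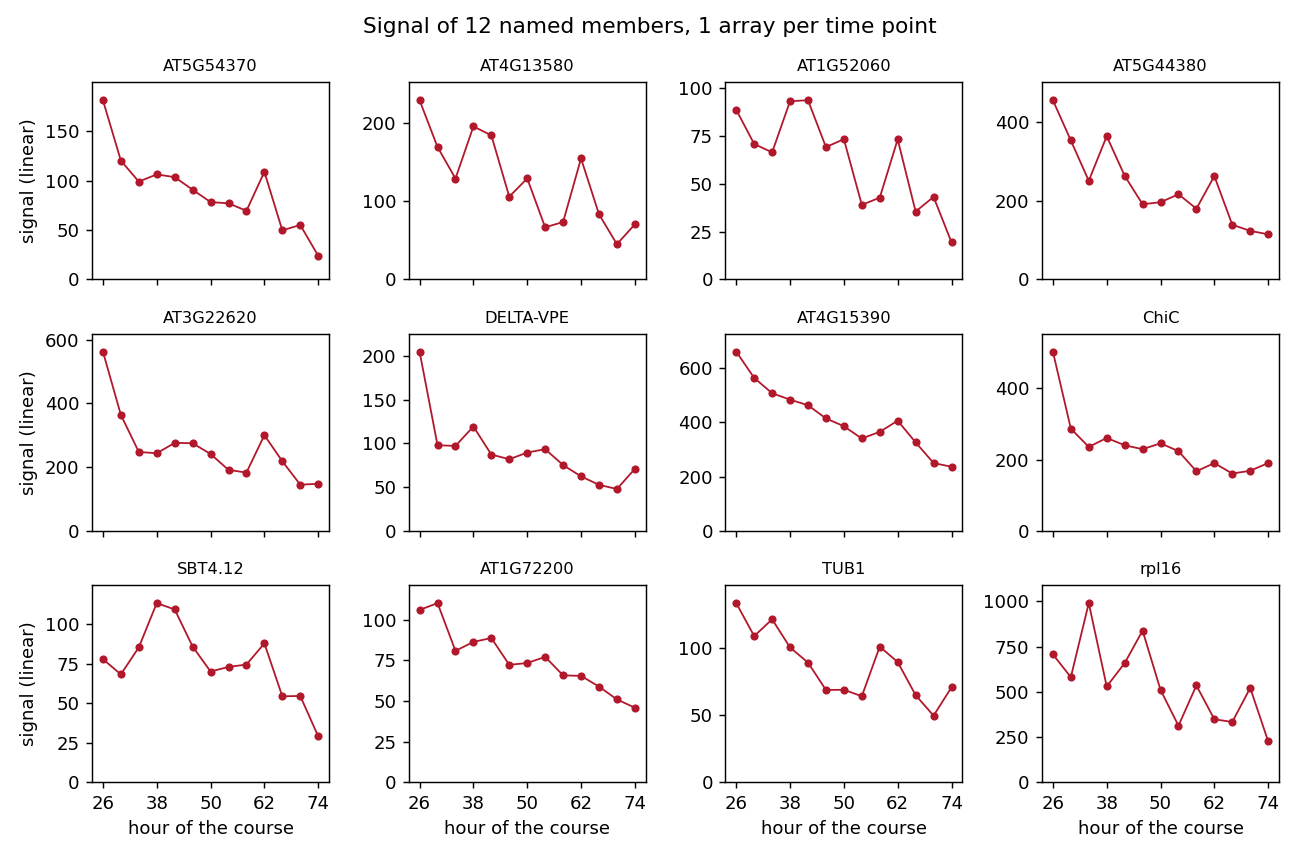
Linear signal (vertical axes, each starting at 0 with its own scale) against hour of the course (horizontal axes) for 12 named members, 1 point per array. AT4G15390 and AT1G72200 decline almost steadily, ChiC and DELTA-VPE drop mainly after hour 26, and rpl16 zigzags, with peaks at hours 34, 46, 58 and 70.

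DELTA-VPE, a vacuolar processing enzyme that is a cysteine protease of the seed coat, read 205, 97.9, 97.1, 119, 87.2, 81.9, 89.5, 93.4, 75.2, 62.3, 52.6, 47.8 and 70.8. Most of its fall came between hours 26 and 30, and the slope was -0.66 ± 0.14. TUB1, a beta-tubulin subunit of microtubules, had signals of 49.7 to 134, a slope of -0.43 ± 0.12 and a low partial R2 of 0.606. AT1G72200, a RING finger protein of a ubiquitin ligase family, had the smallest daily amplitude of the named members, 0.03. It read 106, 110.3, 80.9, 86.4, 88.8, 72.3, 73.4, 77.2, 65.8, 65.5, 58.9, 51.0 and 45.9, a slope of -0.54 ± 0.06.

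The other members of this mixed group had slopes of -0.51 to -0.33. AT5G26280, a TRAF-like protein, had a slope of -0.51 ± 0.11 and signals of 88.9 to 231. AT5G65530, a receptor-like cytoplasmic kinase, had signals of 32.1 to 77.4 and a slope of -0.44 ± 0.11. AT3G25930, a universal stress protein relative, had signals of 64.7 to 137 and a slope of -0.40 ± 0.09. These courses had their highest array at hour 26. AT4G21870, a small heat shock protein, was instead highest at hour 42, with signals of 50.5 to 92.4 and a slope of -0.39 ± 0.08. AT1G21920, a protein with MORN repeats, had signals of 243 to 568 and a slope of -0.33 ± 0.08. It had a dip at hours 38 to 46, and its daily curve peaked at hour 6.13.

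Both transporters had shallow to moderate slopes. AT3G45710, of the nitrate and peptide transporter family, had signals of 36.7 to 100.4 and a slope of -0.57 ± 0.14. AT1G11670, of the MATE family of efflux carriers, had signals of 110.3 to 203 and a slope of -0.34 ± 0.09.

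Among the 7 named members to which no role was given, AT5G54370 had the steepest slope of all members with 1 gene, -0.97 ± 0.19. It read 181, 120.1, 98.9, 106, 103, 90.7, 78.2, 76.9, 69.4, 109, 49.6, 55 and 23.9. Its first and last arrays were the extremes, and without both the slope was -0.58. AT5G57760 had a slope of -0.72 ± 0.19, AT1G78110 -0.70 ± 0.14 and AT1G30750 -0.69 ± 0.13. AT5G61340 had a slope of -0.45 ± 0.08, AT1G71740 -0.44 ± 0.09 and AT5G42860 -0.34 ± 0.09.

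A pair of members are organelle-type genes. AT2G07751 is a copy of a mitochondrial gene for a subunit of respiratory complex I, and its probe set may read the near-identical mitochondrial copy, so its source is uncertain. It had signals of 79.9 to 139 and a slope of -0.35 ± 0.09. The chloroplast gene rpl16, for a protein of the plastid ribosome, completes the pair. It read 707, 581, 991, 529.6, 659, 838, 511, 313, 535, 348, 333, 522 and 227, with a slope of -0.76 ± 0.21. Its high arrays of hours 34, 46, 58 and 70 lie 12 h apart.

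A 12 h component was not used to choose the members, so it was tested by adding the cosine and sine of 12 h to the curve, with limma's moderated F and Benjamini-Hochberg adjustment. It was called in 3 of the 13611 probe sets, or 0.022%, and rpl16 was the 1 member among them. Its 12 h amplitude was 0.50 on the log2 scale, with an adjusted p of 0.0169 in limma. The call for rpl16 was lost when the array of hour 30, 34, 46, 54, 58, 66 or 70 was left out, and with a daily period of 22 or 26 h. At an unadjusted p under 0.05, 17 members (19.3%) and 12.2% of all tested probe sets had a 12 h component.

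Whether the fall slowed or quickened was asked with a term in squared time, in units of 24 h from the middle of the course. After adjustment limma called no probe set of the 13611, which is 0%, and no member. At an unadjusted p under 0.05 it gave 9 members (10.2%) and 6.47% of all tested. The coefficient was above 0, meaning a fall that slowed, in 58 members (65.9%), against 46.1% of all tested probe sets. It was also above 0 in 34 of the 55 probe sets (61.8%) that met the same thresholds with a rising slope, for which it means a rise that quickened. Among the named members it was most positive for TUB1 at 0.41 ± 0.17, AT4G11290 at 0.40 ± 0.19 and AT1G06830 at 0.36 ± 0.14. It was most negative for SBT4.12 at -0.62 ± 0.16 and AT1G52060 at -0.44 ± 0.25, whose falls lay late in the course.

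The daily terms were then compared between the cycles, hours 26 to 46 and hours 50 to 70. No probe set was called after adjustment by limma, again 0% of all tested. Without adjustment, 18 members (20.5%) had a p under 0.05, against 4.39% of all tested. Only 12 arrays enter that comparison.

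**Figure D3:**
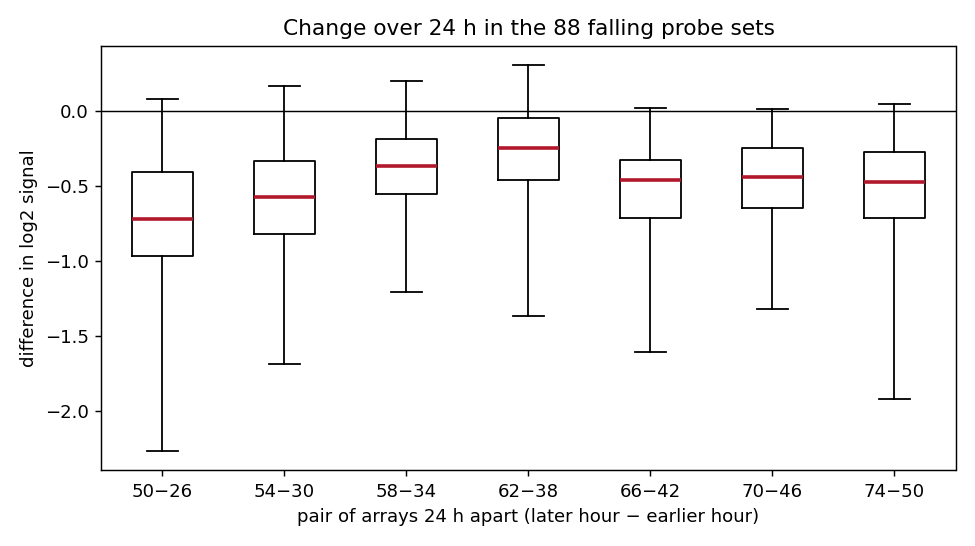
Difference in log2 signal between arrays 24 h apart (vertical axis) for each of the 7 pairs (horizontal axis, later hour minus earlier hour) over the 88 members. Boxes span the quartiles, red lines are medians and whiskers reach the lowest and highest member. Medians lie between -0.72 for hours 50 and 26 and -0.25 for hours 62 and 38.

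Pairs of arrays 24 h apart compare the same time of day, and since the slope chose the members their counts are descriptive. The signal was lower on the later array in all 7 pairs in 52 members, in 6 pairs in 35, and in 5 pairs in 1. Of all tested probe sets, 1.7% were lower in all 7. The median difference was -0.72 from hour 26 to 50, -0.57 from hour 30 to 54, and -0.37 from hour 34 to 58. It was -0.25 from hour 38 to 62, the smallest of the 7 medians in size, when 72 of the 88 members were lower. The last 3 pairs gave -0.46, -0.44 and -0.47. Lower values on every array of hours 54 to 74 than on every array of hours 26 to 46 were found in 3 members, AT4G15390, ChiC and AT1G23720, and in 0.132% of all tested probe sets. Limma's moderated drift test uses the slope that chose the members, so its 70 falling calls among the 88 add no support. Across all tested it called 0.632% falling.

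The members shared deviations from their own fitted curves on particular arrays. At hour 62 the median deviation was 0.17 on the log2 scale, and 74 of the 88 members (84.1%) lay above their curve, against 48.3% of all tested probe sets. At hour 26 it was also 0.17, with 68 members (77.3%) above, against 45.8% of all tested. At hour 34 it was -0.20, and 13 members (14.8%) lay above their curve, against 52.7% of all tested. At hour 46 it was -0.10, with 22 of the 88 above, against 53.3% of all tested. The deviation of rpl16 ran the other way at hour 34, at 0.62. When the array of hour 62 was left out, 144 probe sets met the thresholds in place of 88, and without hour 34 it was 135. Over the 3828 pairs of members the deviations correlated at a median of 0.24 across the 13 arrays, with a range of -0.91 to 0.97. The members share these arrays, and whether the deviations come from the samples or the arrays was not tested.

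**Figure D4:**
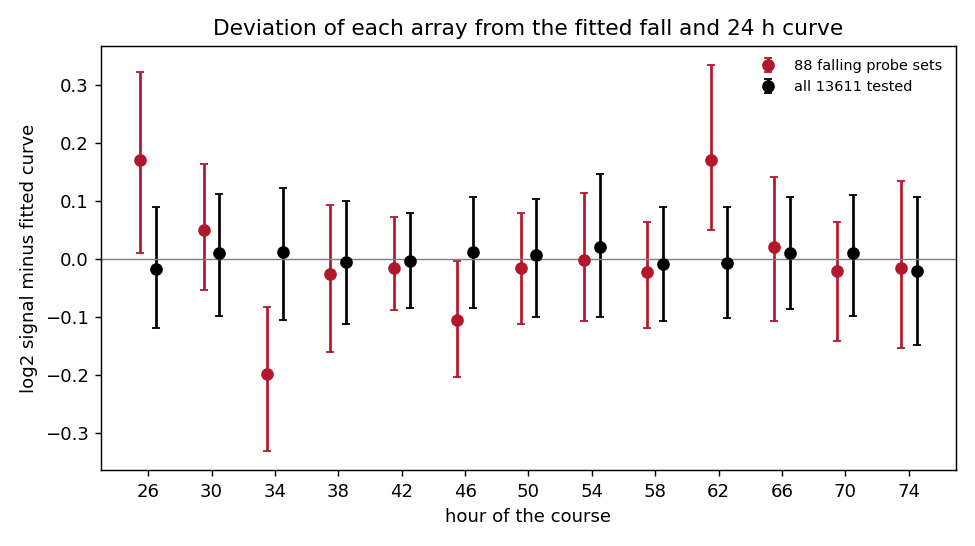
Log2 signal minus the fitted fall and 24 h curve (vertical axis) at each hour (horizontal axis, 1 array each). Points are medians and bars span the quartiles, for the 88 members in red and all 13611 tested in black. The members sit above their curves at hours 26 and 62, with a median of 0.17 at each, and below at hour 34, with a median of -0.20, while the medians of all tested stay near 0.

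The daily curves of the members had amplitudes of 0.019 to 0.45, capped under 0.5 by the rule. Their median of 0.19 was above the 0.14 of all tested. The hour of their peak had no threshold, but it is not independent of the choice, since slope and daily terms were fitted together. On these 13 hours the error of the slope correlates with those of the cosine and sine terms at -0.172 and 0.28, so that a slope fitted too negative comes with a daily curve drawn towards hour 20, and one fitted too positive with a curve drawn towards hour 8. The peak lay between hours 12 and 24 in 65 members (73.9%), compared with 51.3% of all tested and 41.8% of the 55 rising counterparts. In 27 members (30.7%) it lay between hours 16 and 20, compared with 18.6% of all tested. Peaks between hours 0 and 4 were found in 6 members (6.82%), in 12.7% of all tested and in 27.3% of the rising counterparts. These shares are a description without a test, and nothing is read from their difference.

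**Figure D5:**
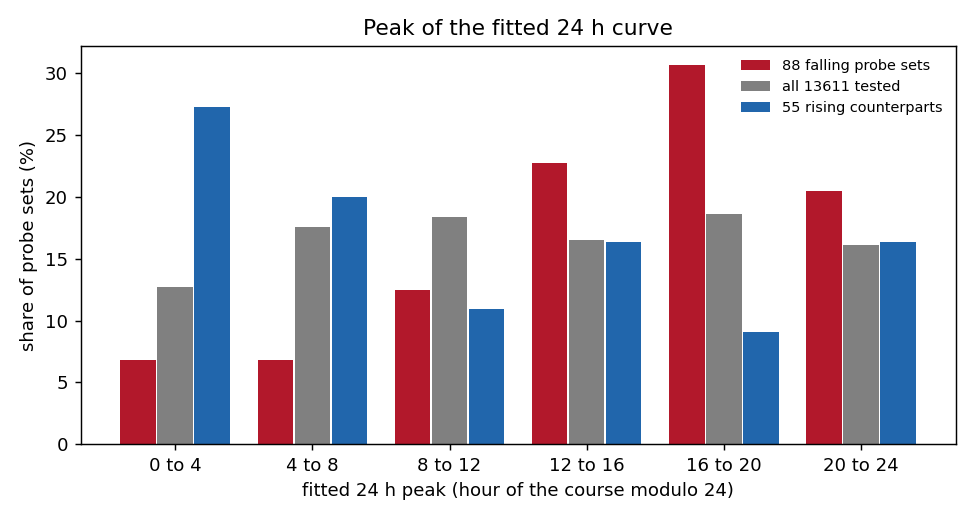
Share of probe sets in percent (vertical axis) whose fitted 24 h curve peaked in each 4 h window (horizontal axis, hour of the course modulo 24). Red bars are the 88 members, grey bars all 13611 tested and blue bars the 55 rising counterparts. The tallest red bar, 30.7%, is that of hours 16 to 20, and the tallest blue bar, 27.3%, that of hours 0 to 4.

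Other genes of the wall and of nearby pathways put the members in context. Of 67 loci of class III peroxidases, 32 had a tested probe set named by 1 gene. Their median slope was -0.15, and 23 of the 32 slopes were below 0, against 47.9% of all tested. Limma's drift test called 5 falling, where 0.632% of all tested were called, and 1 rising, where 0.382% were. The 5 include the 3 left out by name, which were singled out for their fall in these data, so the counts are a description. AT4G11290 is the 1 peroxidase among the 36 members with 1 gene. Those 3 left out had slopes of -1.06 ± 0.24 for AT3G01190, -1.02 ± 0.19 for AT5G64100 and -0.995 ± 0.144 for AT5G66390. AT2G37130 had a slope of -0.76 ± 0.17, but its daily amplitude of 0.87 kept it out. AT5G58390, with a slope of 0.58 ± 0.10, was the peroxidase called rising.

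No member came from the 6 tested xyloglucan endotransglucosylases, which cut and rejoin a wall polysaccharide. XTH18 had the steepest slope of them, -0.89 ± 0.52, and did not reach the threshold on partial R2. None came from the 18 transcription factors, 8 glutathione transferases or 7 cytochromes P450 tested by symbol. Since 0.647% of all tested probe sets met the rule, nothing is read from a count of 0 in lists of these sizes. The list of lipid transfer and hybrid proline-rich proteins had 3 tested genes and no member. It does not hold AT3G22620 and AT3G58550, the members of the lipid transfer family described above, so its lack of a member does not speak for that family. The slopes of its 3 tested genes were -0.30 for AT1G62510, 0.01 for AT2G45180 and 0.26 for AT4G12490. The lists of fasciclin-like proteins, aquaporins, nitrogen assimilation and the cell cycle had 0 tested probe sets with 1 gene, so they are not analysed here. A search by symbol for ribosomal proteins also matched 0, but it missed the member rpl16, so that 0 does not mean that none was tested.

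Markers of both tissues of a seedling were present. Of 23 root marker loci, 3 were tested: the root hair expansins EXPA7 and EXPA18 and the root beta-glucosidase PYK10. Their slopes were -0.20 ± 0.20, -0.03 ± 0.13 and 0.05 ± 0.07. Signals were low for EXPA7, at 21.7 to 60.8, and for EXPA18, at 35.3 to 64.9. The summed signal of the 3, most of it from PYK10 with 2524 to 3492, lay between 2593 and 3559. Of 23 photosynthesis marker loci, 6 were tested, with slopes of -0.01 to 0.18 and a summed signal of 10433 to 15216. Neither list holds a member, but symbols beginning EXPA were left out by name, so EXPA7 and EXPA18 could not be members. The part of tissue proportions in the members' fall was not tested beyond these values.

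The thresholds cut a continuous range. Among probe sets with 1 gene, those just inside the slope threshold were AT5G48900 and AT3G58550 at -0.32 and AT1G21920 at -0.33. Just outside among them were AT5G01210, PRA1.B6 and AT3G16760, each at -0.29. For partial R2, rpl16 at 0.604 was inside and AT4G30450 at 0.594 outside. For amplitude, AT4G39675 at 0.59 was outside with a slope of -1.81 ± 0.37. In all 20 alternative settings the slope of each of the 88 members stayed below 0. The whole rule was met in every one of the 20 by 23 members, 11 of them named, and with each single array left out by 37. Membership was less stable for rpl16 and AT5G42860, which met the rule in 9 of the 20, and for AT3G58550, in 11.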

How the data were processed

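Total RNA from whole seedlings was hybridised to 13 ATH1 arrays. The authors deposited linear intensities, 1 for each probe set and array. They were made with MAS5, per the submitters' processing notes, and the sources used here do not give its version. Their trimmed mean was 100.01 on every array, so a change in total RNA per cell cannot be seen. Detection calls were not used here.

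Of 22746 non-control probe sets, 13611 with a mean log2 intensity above 5 were tested. The platform annotation gave 1 gene to 13513, several to 503 and none to 8730. The gene table of TAIR10.1 matched 13436 of the 13513 and updated symbols. It served for names and gene order, and no coordinates or sequences are given.

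Slopes came from least squares in R 4.3.3. The tests of drift, of squared time, of 12 h terms and of cycles used limma 3.58.1 (lmFit, and eBayes with an intensity trend). Calls took Benjamini-Hochberg adjusted p-values under 0.05 over the 13611. With no replicates, p-values and standard errors measure the scatter of arrays round a curve, and precision is limited by the number of arrays. The members, the gene lists and the tests were chosen with earlier results of these data known, and roles were given after the values were seen. The named genes came from a rule that took the steepest, brightest, most curved, and most and least rhythmic members with 1 gene, members of lists, members called by a test, members known by symbol and those at the thresholds. The rest of the 36 are also named, beyond that rule.

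On simulated data with 13611 probe sets, seeded 12 h amplitudes of 0.5 were recovered in 79.1%, curvatures of 0.5 and 1 in 17.9% and 82.1%, and cycle differences of 0.5 and 1 in 7.46% and 68.7%. False calls were 6.12%, 7.64% and 7.26% of all calls. The simulated noise was independent between probe sets, unlike the deviations that members shared. Seeded 12 h and cycle effects were cosines only. The rates may therefore differ on the measured data. Alternatives concerned scaling, offset, filter, the period, the daily terms, the thresholds, the moderation and the arrays included. Figures were drawn with matplotlib 3.10.9 in Python 3.11.15.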

Additional observations from a re-analysis of the deposited data

Results flagged for a closer look

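Outside the tested range, 30 of the 9135 dim probe sets (mean log2 signal of 5 or lower), or 0.328%, met the falling thresholds on slope, partial R2 and amplitude, a signal that the comparisons above do not use. Of the 30, 15 are annotated to 1 gene. Their median slope was -0.73 log2 per 24 h, and -0.31 when 16 was added to each signal before the logarithm, with which 15 still met the thresholds. The steepest was AT5G60520, with signals of 1.86 to 31.5 and a slope of -1.80, or -0.67 with the offset. AT3G28550 had a slope of -1.70, or -0.64 with the offset. Control samples were not part of the course, and what sets these dim signals was not tested.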

How the results depend on the processing

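No paired analysis was possible because every time point is a group of 1 array, so no replicate number is shared between groups. The pairs of arrays 24 h apart compare time points and not replicates. Against 88 members, 48 probe sets met the rule without daily terms, 144 with a partial R2 of at least 0.5 and 44 with at least 0.7. With single arrays left out the number ran from 63 to 144, and 45 members were shared without hour 26. Without hours 26 and 74 together it was 85, of which 42 were shared. The median slope stayed between -0.53 and -0.43 in the settings tried. The 3 calls of a 12 h component, and the 1 among members, became 0 and 0 with a period of 22 h, with 26 h, without moderation and without hours 26 and 74. With single arrays left out they ran from 0 to 24, the highest without hour 50, and from 0 to 1 among members. Curvature calls, 0 at first, were 1 with 26 h and 0 to 2 with single arrays left out. Cycle difference calls, also 0 at first, were 123 with 26 h, 3 of them members, and 0 to 1 with single arrays left out. The cause of these moves was not tested. No slope of a named member changed sign, though without hours 26 and 74 that of AT1G21920 was -0.21 and that of AT5G65530 -0.29. With 1 array per time point and signals of some members near 20, the errors of single values are unknown.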
